A study of Mus musculus with 2 samples.

Results

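Dividing CD4 T cells of mouse adipose tissue and spleen were chosen by their own Mki67 and Top2a counts in 2 droplet libraries. A cell was counted as cycling when it held at least 1 UMI (unique molecular identifier, 1 captured transcript) of Mki67 and at least 1 of Top2a. Among 12789 T cells, 184 met this rule, 103 of 3879 in library 1 and 81 of 8910 in library 2, or 1.44% in all. A further 888 T cells held a UMI of only 1 of these genes, and 11717 held neither. The rule used Mki67 and Top2a, so their levels are no finding.

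Ki-67, the product of Mki67, coats mitotic chromosomes and is absent from resting cells. Topoisomerase II alpha, the product of Top2a, untangles DNA before chromosomes separate. A resting T cell that is activated leaves quiescence, copies its DNA in S phase, and passes through G2 into mitosis, with waves of transcription driven by E2F factors and then by B-Myb and FoxM1 complexes. Conventional helper cells such as T helper 1 (Th1) cells, which carry T-bet and make interferon gamma, and regulatory T (Treg) cells, which carry Foxp3, both live in fat and can divide there.

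The mice were wild-type male C57BL/6J animals, labelled as 8 weeks old, with no treatment named. Live CD4+ T cells (also CD3+ and TCRb+) were sorted from spleen and from 3 fat depots, namely brown (BAT), subcutaneous (SAT) and visceral (VAT) adipose tissue. Hashtag antibodies marked 8 samples in each of 2 experiments, 2 per tissue, and each experiment was run as 1 library. They are called replicates 1 and 2 in experiment 1 and replicates 3 and 4 in experiment 2. Fat went through collagenase II and spleen did not, so that tissue and digestion cannot be told apart between fat and spleen. The labels call the samples biological duplicates but name no animals, and permutation p-values measure the spread between these samples only. P-values of genes came from counts summed per library, unless sums per hashed sample are named, and do not measure that spread.

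Depth differed between libraries, with medians of 6121 and 4316.5 UMIs per T cell, and the hashtags placed 9521 T cells in 1 sample, 145 of them cycling. A further 24 cycling cells carried hashtags of more than 1 sample and 15 stayed unresolved. The hashtags of SAT replicate 1 and BAT replicate 4 were weak, separated from background by 2.21 and 3.24 robust standard deviations. Strict calling kept 48 of 413 and 101 of 413 of their cells. The libraries shared 8 barcode sequences among the cells kept. Of identity genes, Cd3d was found in 97.3% of the 184 cycling cells, Trac in 97.3% and Cd4 in 72.8%. Of the CD8 chains, Cd8a was found in 5 cells and Cd8b1 in 23 (12.5%, against 5.52% of depth-matched cells).

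The promoters of the selecting genes are shown because they carry the letters by which mitotic genes are often recognised. Each line gives 160 bases that end just before the RefSeq start (GRCm38.p6), 5′ to 3′ along the gene's strand. Capitals mark the CHR element TTTGAA or its variant TTCGAA, to which the MuvB core complex binds, and the CCAAT box, to which NF-Y binds, each on either strand. Mki67 lies on the minus strand (chr7:135716380-135716539), Top2a on the minus strand (chr11:99024190-99024349) and Birc5 on the plus strand (chr11:117849077-117849236).
Mki67: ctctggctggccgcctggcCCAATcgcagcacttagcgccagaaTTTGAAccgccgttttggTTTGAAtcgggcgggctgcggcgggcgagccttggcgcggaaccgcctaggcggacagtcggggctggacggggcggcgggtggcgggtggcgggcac
Top2a: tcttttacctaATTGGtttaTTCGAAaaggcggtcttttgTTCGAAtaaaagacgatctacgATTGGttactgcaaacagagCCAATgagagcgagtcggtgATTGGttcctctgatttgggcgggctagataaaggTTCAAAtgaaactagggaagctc
Birc5: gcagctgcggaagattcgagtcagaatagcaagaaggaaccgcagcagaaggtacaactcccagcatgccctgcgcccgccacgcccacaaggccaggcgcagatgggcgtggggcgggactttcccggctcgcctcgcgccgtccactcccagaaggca
Mki67 and Top2a hold both elements in this window, and Birc5, which encodes the mitotic protein survivin, holds neither. In the 250 bases before the start, TTTGAA or TTCGAA on either strand occurred in 33 of 78 genes of the G2 and mitosis list (42.3%), in 9 of 43 of the S phase list (20.9%) and in 17.4% of 27025 genes. CCAAT occurred in 70.5%, 60.5% and 34.5% of these windows. These are letter matches, not measured binding.

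The 184 cells were not of one kind in their cell cycle content. Mki67 and Top2a each had a median of 7 UMIs per cell and reached 71 and 59, and 28 cells held exactly 1 UMI of each. Those 28 lie just inside the threshold, and the 888 cells with only 1 of the genes lie just outside it. The 94 genes of the G2 and mitosis list summed to 100 UMIs or more in 129 cycling cells, which had medians of 15 Mki67 and 14 Top2a UMIs, and Birc5 and Pclaf were both found in 113 of them. Pclaf encodes a partner of the replication clamp PCNA. The other 55 cells had a median of 1 UMI of either selecting gene, 36 UMIs of the list, and neither Birc5 nor Pclaf in 50 cells. The boundary of 100 was set after the values were seen, and 33 cells held 50 to 199 UMIs. In these 55 cells the check markers mostly did not bear out the label of dividing cells. How their UMIs of Mki67 and Top2a arose was not tested. The 55 stay among the cycling cells in the program counts below, and those placed by hashtags stay in the gene tests. Counts with a rule of 2 UMIs of each gene, or of Birc5 and Pclaf, are therefore given beside the tissue shares.

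**Figure D1:**
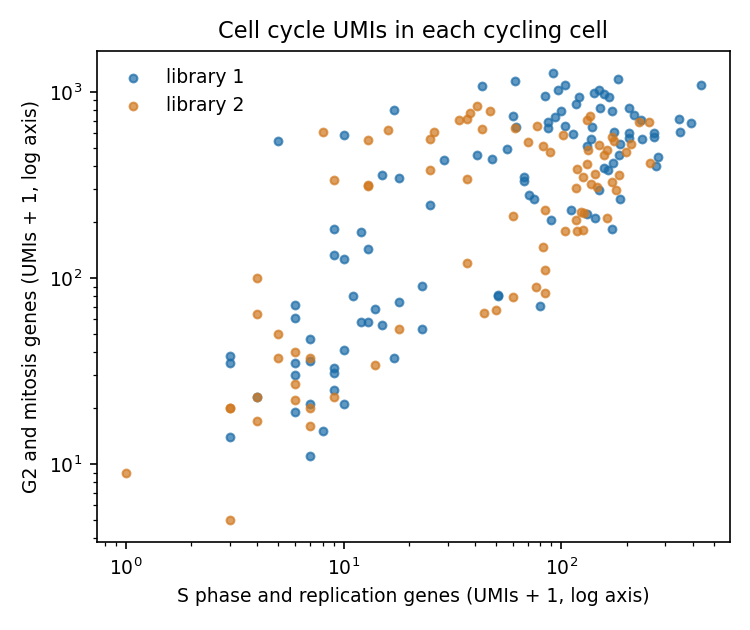
Each point is 1 of the 184 cycling cells, with UMIs of the S phase and replication list (57 genes, plus 1, log axis) against UMIs of the G2 and mitosis list (94 genes, plus 1, log axis), coloured by library. The cells spread from few UMIs of both lists to 436 and 1262 UMIs, and 55 lie below 100 UMIs of the G2 and mitosis list.

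Cycling cells made up more of the T cells in SAT and VAT than in BAT and spleen. In SAT they were 5.57%, 3.6%, 2.11% and 2.04% of T cells in replicates 1 to 4 (3.33% ± 1.66, SD, n = 4). In VAT they were 5.21%, 2.98%, 1.10% and 1.43% (2.68% ± 1.87). In BAT they were 0.394%, 1.21%, 0.532% and 0.242% (0.594% ± 0.426). In spleen they were 0.592%, 0%, 0.236% and 0.409% (0.309% ± 0.252), and the 0 of 428 cells in replicate 2 allows a share of up to 0.701% (3 counts of the total, here and for every other 0). Within each experiment every SAT sample lay above every BAT and spleen sample. Pooled over experiments, BAT replicate 2 (1.21%) lay above VAT replicate 3 (1.10%), while SAT had no overlap with BAT or spleen.

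The difference was 2.74 points for SAT minus BAT, 3.02 for SAT minus spleen, 2.09 for VAT minus BAT and 2.37 for VAT minus spleen. Each had p = 0.0556 in a 2-sided exact permutation of tissue labels within experiments, the smallest p these samples can give, and 0.0833 after Benjamini-Hochberg adjustment over 6 pairs. None passed 0.05. SAT minus VAT was 0.648 points (exact permutation p = 0.333) and BAT minus spleen 0.285 points (exact permutation p = 0.389). In experiment 1 SAT exceeded BAT by 3.79 points and in experiment 2 by 1.68, and VAT exceeded BAT by 3.29 and 0.880. Of the 145 placed cycling cells, 69 came from SAT, 56 from VAT, 12 from BAT and 8 from spleen.

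With 2 UMIs of Mki67 and of Top2a required, the shares were 2.45% ± 1.17 in SAT, 1.86% ± 1.43 in VAT, 0.390% ± 0.417 in BAT and 0.125% ± 0.149 in spleen. With Birc5 and Pclaf in their place they were 2.66% ± 0.800, 1.93% ± 1.21, 0.490% ± 0.315 and 0.151% ± 0.174. Thinning every cell to 1300 UMIs left 1.62%, 1.17%, 0.134% and 0.0740%, with 3 cycling cells in BAT and 1 in spleen. The order of the means was SAT, VAT, BAT, spleen under each of these 3 rules. Without BAT replicate 2 the BAT mean was 0.389%.

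**Figure D2:**
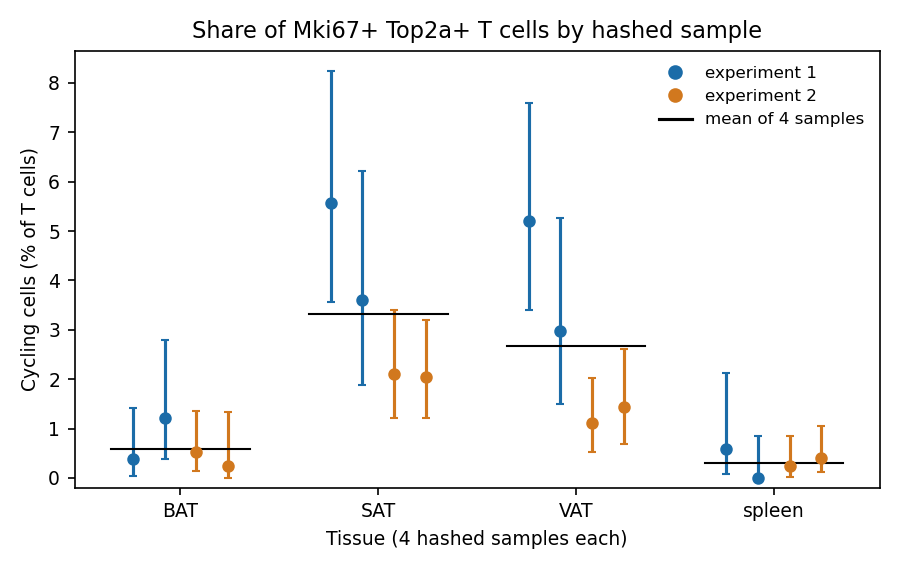
Cycling cells as a percentage of T cells (y axis) in each hashed sample, by tissue (x axis) and coloured by experiment, with exact 95% binomial intervals that cover counting error only and the mean of 4 samples as a bar. SAT runs from 2.04% to 5.57% and spleen from 0% to 0.592%.

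Most cycling cells carried a Th1 program. A cell was called Th1 when it held UMIs of at least 2 of Tbx21 (T-bet, the Th1 master regulator), Cxcr3 and Cxcr6 (chemokine receptors of effector cells in tissue), Ifng (interferon gamma), Il12rb2 and Il18rap (parts of the receptors for IL-12 and IL-18). This held for 148 of 184 cycling cells (80.4%, exact 95% interval 74.0 to 85.9, counting error only) and for 115 of the 145 placed cells (79.3%). It held for 84.5% in library 1 and 75.3% in library 2. By tissue it held for 58 of 69 in SAT, 45 of 56 in VAT, 10 of 12 in BAT and 2 of 8 in spleen. Of cells with fewer than 100 G2 and mitosis UMIs 78.2% were called Th1, and of the others 81.4%. In 34 cells the call rested on exactly 2 genes, and 25 cells were 1 gene short.

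Depth had to be matched, since cycling cells were deep (median 14386 UMIs in library 1 and 10864 in library 2, where cells with neither gene had 5988 and 4272). Each of the 145 placed cells was set beside 5 cells of its own hashed sample with no Mki67 and no Top2a UMI and the nearest depth. The match was incomplete, with median depths in library 1 of 13095 UMIs in cycling and 8161 in matched cells, and of 10542 and 7879 in library 2. The 9 hashed samples with at least 5 cycling cells were compared, 4 of SAT, 4 of VAT and BAT replicate 2.

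The Th1 call was more frequent in cycling cells in 9 of 9 samples. In SAT replicates 1 to 4 it held for 82.6%, 83.3%, 75% and 94.4% of cycling cells and for 70.4%, 46.7%, 50% and 58.9% of matched cells. In VAT it held for 80%, 100%, 70% and 70% against 47.2%, 45.5%, 28% and 44%, and in BAT replicate 2 for 80% against 16%. The means were 81.7% ± 10.2 and 45.2% ± 15.8 (SD, n = 9), a difference of 36.5 points (2-sided exact sign-flip permutation p = 0.00391, the smallest 9 samples can give, and 0.0117 adjusted over 6 programs). The lowest cycling value, 70%, lay just below the highest matched value, 70.4%, so that the groups overlapped by those samples only. After each cycling cell was thinned to the depth of its matched cells the difference was 28.5 points, higher in 9 of 9 samples (adjusted exact permutation p = 0.0117).

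Per transcript the same genes differed little. All 6 Th1 call genes had log2 fold changes above 0, from 0.16 to 0.39, and none passed the test (edgeR on sums per library). Cxcr3 stood at 205 CPM (counts per 1000000) in cycling and 157 in matched cells (log2 fold change 0.32 ± 0.13, SE, edgeR adjusted p = 0.0862). Over the 9 samples Cxcr3 ran from 108 to 337 CPM (median 221) in cycling and from 61.6 to 265 (median 166) in matched cells, overlapping widely and higher in cycling cells in 7 of 9. Tbx21 ran from 30.8 to 138 CPM (median 61.8) against 12.3 to 96.0 (median 43.7), also higher in 7 of 9. Cxcr3 UMIs were found in 79.3% of the 145 placed cycling cells and in 46.3% of matched cells, which were also shallower. No UMI of Cxcr3, Cxcr6, Tbx21, Ifng or Foxp3 was found in 23 B-like cells outside the T cell set, which allows a share of up to 13.0%. Those cells had a median of 4579 UMIs against 12583 in cycling cells.

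The naive program was rarer in cycling cells. It asked for at least 3 of 6 genes, among them Ccr7 (a homing receptor), Lef1 and Satb1 (nuclear regulators of resting T cells), Igfbp4 and Dapl1. In SAT replicates 1 to 4 it held for 4.35%, 0%, 12.5% and 5.56% of cycling cells against 28.7%, 43.3%, 56.3% and 32.2% of matched cells. In VAT it held for 20%, 0%, 0% and 0% against 39.2%, 32.7%, 62% and 36%, and in BAT replicate 2 for 60% of 5 cells against 84%. It was lower in 9 of 9 samples, by 34.7 points on average (exact sign-flip permutation p = 0.00391, adjusted 0.0117). Among the 145 placed cells 18 were called naive (12.4%), 10 of them Th1 as well. Of the 24 cells with hashtags of more than 1 sample, which may be doublets, 15 were called naive and 14 of these Th1 as well, and these cells enter no comparison with matched cells. Placed naive-called cells made up 4 of 8 cycling cells in spleen and 5 of 12 in BAT, against 4 of 69 in SAT and 5 of 56 in VAT.

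Foxp3-positive cells were among the cycling cells, and their share did not pass the test against matched cells. Foxp3, the Treg lineage factor, was found in 20 of 184 cycling cells (10.9%, exact 95% interval 6.77 to 16.3). Of these, 7 were placed in SAT, 6 in VAT, 1 in BAT and 1 in spleen, and the rest were not placed by hashtags. Of the 20, 15 had at least 100 G2 and mitosis UMIs and 5 had fewer. In SAT replicates 1 to 4 the Foxp3 share was 4.35%, 16.7%, 18.8% and 5.56% of cycling cells against 10.4%, 16.7%, 3.75% and 10% of matched cells. In VAT it was 12%, 9.09%, 10% and 10% against 11.2%, 16.4%, 10% and 8%. Over 9 samples the means were 11.8% ± 5.56 and 10.5% ± 4.05 (difference 1.33 points ± 7.64 SD, exact permutation p = 0.609, adjusted 0.731), and the groups overlapped. The sign of this difference turned in 4 alternatives and without SAT replicate 3. Of the 4, taking samples of at least 10 cycling cells is the same as leaving out BAT replicate 2, and gave -0.000516 points. Of the 20 Foxp3-positive cells 8 were also called Th1. Within Foxp3-positive T cells 7 of 171 were cycling in SAT (4.09%, exact 95% interval 1.67 to 8.25), 6 of 209 in VAT (2.87%), 1 of 83 in BAT (1.2%) and 1 of 195 in spleen (0.513%).

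NKT, follicular helper (Tfh) and Th17 calls were few. The NKT call, 2 of Zbtb16 (PLZF, the NKT lineage factor), Klrb1c (NK1.1), Cd160, Klrd1 and Trav11, held for 9 cycling cells, none of them among the 56 in VAT, which allows a share of up to 5.36%. All 9 were also called Th1. The Tfh call, 2 of Cxcr5, Pdcd1, Bcl6, Il21, Sostdc1, Ascl2 and Angptl2, held for 3 cells, all of them also called Th1. The Th17 call, 2 of 6 genes that include Il17a, Il23r, Ccr6, Tmem176a and Tmem176b, held for 18 cells, 10 of 56 in VAT and 3 of 69 in SAT, and 15 of the 18 were also called Th1. Il17a had no UMI in any cycling cell, and the Th17 calls rested mostly on the pair Tmem176a and Tmem176b, each found in 22 cells. Among the 23 B-like cells Tmem176a was found in 2 (8.70%) and Ccr6 in 7, and Il17a, Il23r and Tmem176b in 0. Against matched cells the mean differences were 0.397 points for NKT (adjusted exact permutation p = 0.922), -0.942 for Tfh (0.563) and 2.34 for Th17 (0.563). After thinning to matched depth 0% of cycling cells were called Tfh against 2.65% of matched cells, lower in 7 of 9 samples (adjusted exact permutation p = 0.0313). With 1 Tfh gene fewer required the difference was 11.5 points the other way, at the same adjusted exact permutation p of 0.0313, so that the direction depends on the rule. No program was called in 17 cycling cells.

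**Figure D3:**
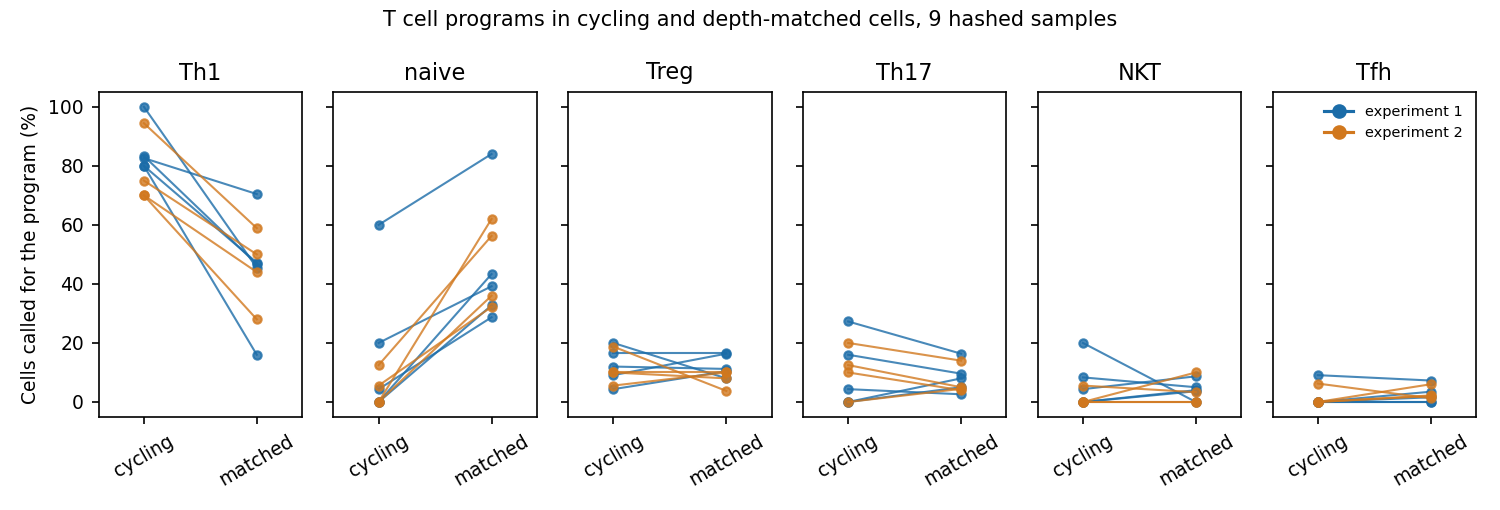
Percentage of cells called for each of 6 programs (y axis) in cycling cells and in their depth-matched cells (x axis), with 1 line per hashed sample for the 9 samples with at least 5 cycling cells, coloured by experiment. The Th1 lines all fall and the naive lines all climb from cycling to matched cells, while the others cross.

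The tissues differed in how many Th1 cells they held, while the order of the fat depots in cycling share within those cells depended on the rule and on 1 sample. Th1-called cells were 54.0% ± 13.9 of T cells in SAT, 45.5% ± 10.9 in VAT, 9.44% ± 2.56 in BAT and 4.49% ± 1.93 in spleen (SD, n = 4). Among Th1-called cells the cycling share in BAT was 6.06%, 11.1%, 3.16% and 2.44% in replicates 1 to 4 (5.69% ± 3.94), from 2, 4, 3 and 1 cells. In SAT it was 6.42%, 5.65%, 4.18% and 3.61% (4.96% ± 1.30), in VAT 7.69%, 5.37%, 2.26% and 2.62% (4.48% ± 2.55), and in spleen 4.35%, 0%, 0% and 3.45% (1.95% ± 2.28). The 3 fat depots overlapped in experiment 1, and in experiment 2 both SAT samples lay above those of BAT and VAT. SAT minus BAT was -2.55 points in experiment 1 and 1.10 in experiment 2 (mean -0.727, exact permutation p = 0.944), and VAT minus BAT was -2.06 and -0.359 (mean -1.21, exact permutation p = 0.444). Without BAT replicate 2, with 4 cycling of 36 Th1-called cells, these differences were 0.535 and 0.0550, and with 1 Th1 gene fewer required they were 1.67 and 0.973. SAT minus spleen was 3.02 points (exact permutation p = 0.0556, the smallest possible, 0.333 adjusted over 12 pairs). With 33 to 95 Th1-called cells per BAT sample these shares are imprecise, and the large p-values do not show that the fat depots were alike.

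Among T cells not called Th1 the cycling share was lower in every tissue, at 1.45% ± 1.38 in SAT, 0.867% ± 0.981 in VAT, 0.219% ± 0.150 in spleen and 0.104% ± 0.129 in BAT. SAT minus BAT was 1.34 points in these cells (2.22 and 0.468 in the 2 experiments, exact permutation p = 0.0556, adjusted 0.333). With 1 sample left out it ran from 0.809 to 1.88 points. SAT replicate 1, whose hashtag was weak, held 3.42%, and SAT replicates 2 to 4 held 1.28%, 0.846% and 0.243%. Th1-called cells were a little deeper than the others in BAT (medians of 6292 against 5289 UMIs in replicate 1), and the part of depth in these shares was not tested.

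**Figure D4:**
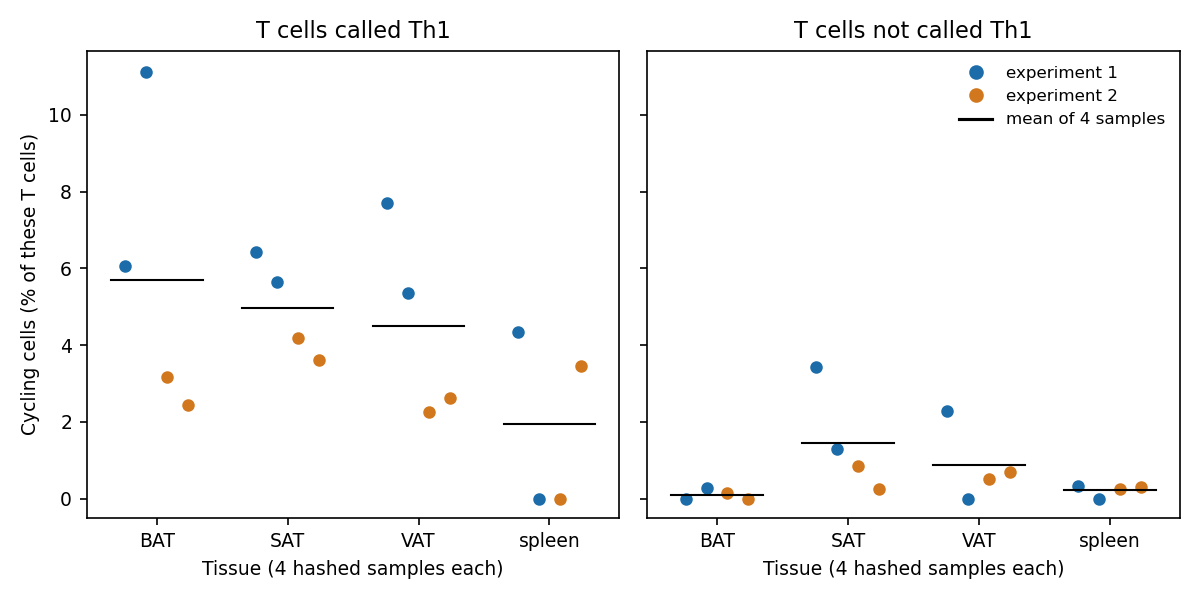
Cycling cells as a percentage of T cells called Th1 (left panel) and of T cells not called Th1 (right panel) in each hashed sample (y axis), by tissue (x axis) and coloured by experiment, with the mean of 4 samples as a bar. In Th1-called cells the BAT mean is 5.69% beside 4.96% in SAT, an order that turns without BAT replicate 2 (11.1%), and in the others it is 0.104% beside 1.45%.

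Gene by gene, cycling cells were compared with their matched cells on counts summed per library (80 and 65 cycling against 400 and 325 matched cells), with Mki67 and Top2a left out. Of 9554 genes tested, 1323 were higher in cycling cells (13.8%) and 905 lower (9.47%) at an edgeR adjusted p below 0.05. The 4 sums leave 1 residual degree of freedom, and the spread is largely borrowed across genes. The count filter can be passed through 1 class alone, so that some genes were tested only through the class where they were higher. Sums per hashed sample, with the sample as a block, tested 4269 genes with more replicates and called 729 higher (17.1%) and 762 lower (17.8%). DESeq2 called 401 higher and 126 lower. Of genes outside all lists DESeq2 called 216 of 9073 higher and 99 lower. With all cells thinned to 1300 UMIs edgeR called 152 of 3630 such genes higher and 188 lower. In simulated data edgeR recovered 49 of 50 rises and 32 of 46 falls of 4-fold, but 8 of 50 rises and 6 of 46 falls of 2-fold, so that an uncalled gene may still differ, and may be lower by 4-fold. The simulation gave every gene the same spread (a dispersion of 0.05), which was not estimated from these counts. Its recovery rates therefore need not hold for this fit.

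The cell cycle lists followed the rule and are described without a test. All 57 genes of the S phase and replication list were above 0 in both libraries, with a median log2 fold change of 2.74. Pcna, the sliding clamp of replication, ran from 275 to 554 CPM (median 400) in cycling cells of the 9 samples and from 63.6 to 104 (median 78.6) in matched cells. The groups did not overlap, and the log2 fold change of Pcna was 2.30 ± 0.12. Mcm5, part of the replicative helicase, differed by 2.74 ± 0.19. Rrm2, the S phase subunit of ribonucleotide reductase, differed by 6.34 ± 0.20 and Rad51ap1, a recombination factor, by 5.93 ± 0.32.

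The G2 and mitosis list had a median of 5.01 over 94 genes, and 93 of them were above 0 in both libraries. Cdk1, the mitotic kinase, ran from 197 to 349 CPM in cycling cells against 0 to 9.87 in matched cells and differed by 6.06 ± 0.23. Ccnb1, its cyclin partner, differed by 5.93 ± 0.33. Birc5 ran from 302 to 601 CPM against 0 to 8.46, and Pclaf from 465.7 to 902 against 0 to 18.1. Neither marker overlapped between the groups, and their log2 fold changes were 7.46 ± 0.23 and 7.21 ± 0.21. Hmmr, a spindle protein, had 323 UMIs in cycling and 0 in matched cells, at least 351-fold higher against a floor of 3 counts over the group. Kif2c, a kinesin that trims spindle microtubules, had 85 against 0, at least 92.3-fold higher. With such genes at their bound the median of the list was 4.97. Pttg1, securin, was the least changed member at 0.27. G2 and mitosis genes took 25957 CPM and S phase genes 5949 CPM of all transcripts in the 184 cells, against 3660 and 1027 in matched cells, and the S phase list gave a median of 18.6% of the UMIs of both lists per cell.

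Replication-dependent histones, which package new DNA, had a median log2 fold change of 4.19 over 31 genes. H1f5 differed by 9.27 ± 0.23 and H3c3 by 9.5 ± 0.29, and H2ac4 had 401 UMIs in cycling and 0 in matched cells, at least 435-fold higher. Many histone genes are near-identical, and how reads were divided among them is uncertain. In the list of cyclins, kinases and inhibitors the transcripts of cell cycle inhibitors were among the highest. Cdkn2c (p18) differed by 2.97 ± 0.21, Cdkn3 by 5.61 ± 0.33 and Cdkn2a, found in 23 of 145 cycling and 10 of 725 matched cells, by 3.27 ± 0.53. E2f7, a repressor that closes the E2F wave, differed by 5.84 ± 0.57. The median of this list was 0.95 over 22 genes.

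Genes of resting T cells were lower. All 15 tested genes of the naive list were called lower, with a median log2 fold change of -1.98 beside -0.01 over all genes tested. Among the 15, Treml2 (4.10 and 4.16 CPM in cycling cells of the 2 libraries) passed the count filter only through the matched cells. It could only be called lower, and was not tested in sums per hashed sample. Of 21 quiescence genes, 16 were called lower and none higher (median -1.13), where edgeR called 9.47% of all genes tested lower. In the sums per hashed sample 12 of 12 naive and 14 of 16 quiescence genes were called lower, beside 17.8% of 4269 genes. The 2 lists share genes, Satb1 and Lef1 among them, so that their counts are not separate. Igfbp4 ran from 0 to 23.9 CPM in cycling cells against 71.5 to 324 in matched cells, without overlap, and fell by 3.76 ± 0.27 on the log2 scale (edgeR adjusted p = 5.45e-11). Satb1 ran from 0 to 59.7 CPM against 118 to 382, again without overlap, and fell by 2.70 ± 0.18. Lef1 ran from 32.7 to 144 CPM against 184 to 455 and fell by 2.15 ± 0.15. Ccr7 was lower in 9 of 9 samples (0 to 108 against 71.5 to 245 CPM) and fell by 2.51 ± 0.19, the groups overlapping through BAT replicate 2. Bach2, a repressor that holds T cells in the resting state, fell by 2.45 ± 0.36 and Pik3ip1, an inhibitor of PI3 kinase signalling, by 2.42 ± 0.26. Igfbp4 (4.10 CPM in cycling cells of library 1) and Bach2 (1.39 CPM in those of library 2) needed the matched sums to pass the count filter.

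Calls in the T cell lineage lists depended on the tool. Of the 58 tested genes of the Treg core, adipose Treg, Tfh, NKT and Th17 lists, edgeR called 4 higher and 13 lower. Over all genes tested, the share to set beside each list count below, edgeR called 13.8% higher and 9.47% lower. Among the 13 genes called lower, Gpr83, Ikzf4, Klrb1c and Ccr6 passed the count filter only through the matched cells and could only be called lower. No lean of the 58 genes together is read from these counts. DESeq2 called none of the 58 (6 at an unadjusted p below 0.05). None of the 25 tested after thinning to 1300 UMIs was called by edgeR (3 at an unadjusted p below 0.05). Sums per hashed sample called 2 higher and 4 lower of 27, where they called 17.1% higher and 17.8% lower of all 4269 genes tested. Of 20 tested Th1 list genes 3 were called higher and none lower (median 0.32), a share of higher calls near the 13.8% over all genes tested. One was S100a4 (0.83 ± 0.15, edgeR adjusted p = 0.000114). The others rested on few cells: Gzma, granzyme A, had 647 UMIs in 8 of 145 cycling cells, of which 1 cell gave 66.2%, and Ccl3 had 32 UMIs in 4 cells. Of 17 tested Treg core genes 1 was called higher and 5 lower (median -0.34), and Foxp3 itself was not called (24.2 against 32.0 CPM, log2 fold change -0.50 ± 0.25, edgeR adjusted p = 0.155). Gpr83, a receptor of Treg cells, had 0 UMIs in cycling and 44 in matched cells, at least 4.50-fold lower, and passed the count filter only through the matched cells. Tnfrsf9 (4-1BB) fell by 1.86 ± 0.31 and Ikzf4 (Eos) by 1.98 ± 0.68, where Ikzf4 also passed the count filter only through the matched cells. Of 20 tested adipose Treg genes Id2 alone was called (0.52 ± 0.12, edgeR adjusted p = 0.0026), and with matching on Th1 and Treg calls it was -0.076 (edgeR adjusted p = 0.725). Of 10 tested Tfh genes 1 was called higher and 4 lower, among them Cd200 (-1.30 ± 0.31, and -0.47 after thinning) and Slamf6 (-0.89 ± 0.17, and -0.37 after thinning). Of 9 tested NKT genes Klrb1c was called lower, with 4 UMIs against 59 (-2.23 ± 0.70), and so was Xcl1. Klrb1c passed the count filter only through the matched cells. Tyrobp was called higher through a single cell that gave 89.7% of its UMIs. Of 3 tested Th17 genes 2 were called lower, Tmem176b (-0.72 ± 0.23) and Ccr6, with 0 UMIs against 47, which passed the count filter only through the matched cells. The 0 covers the 145 placed cells, and Ccr6 was found in 4 of all 184 cycling cells. Tmem176b was not called in sums per hashed sample (edgeR adjusted p = 0.0571), and without matching it was higher in cycling cells (0.68).

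Some metabolic genes were called higher, where edgeR called 13.8% of all genes tested higher. Of 22 respiratory chain genes 15 were called higher and none lower (median 0.50). In the sums per hashed sample 15 of 22 were called higher and 1 lower, beside 17.1% higher and 17.8% lower of all genes tested there. Cox5a, a subunit of cytochrome c oxidase, ran from 427 to 735 CPM in cycling and from 213 to 382 in matched cells of the 9 samples. It did not overlap and differed by 0.78 ± 0.12 (edgeR adjusted p = 1.53e-05). Cox5b and Ndufb7, of complexes IV and I, differed by 0.74 ± 0.13 and 0.73 ± 0.12. After all cells were thinned to 1300 UMIs 2 of the 22 genes were called higher, where 152 of 3630 genes outside all lists were. Cox5a was then at 0.31 (edgeR adjusted p = 0.376), Cox5b at 0.47 (0.0750) and Ndufb7 at 0.32 (0.440). DESeq2 called 4 of 22 higher, where it called 216 of 9073 genes outside all lists higher. Of 18 glycolysis genes 5 were called higher and 1 lower, among them Pgk1 (0.85 ± 0.13, and 0.52 after thinning) and Tpi1 (0.83 ± 0.16). Neither was called after thinning or by DESeq2, which called 1 of 18 higher. Of 18 nucleotide and one-carbon genes edgeR called 5 higher and DESeq2 1, with Dctpp1, which clears noncanonical deoxynucleotides, from 106 to 197 CPM against 22.3 to 58.7, without overlap (2.11 ± 0.16), and Umps, of pyrimidine synthesis, at 1.10 ± 0.29.

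Of 20 tested migration genes 9 were called higher and none lower (median 0.45), with 7 of 20 higher by DESeq2 and 4 of 17 after thinning. Outside all lists 216 of 9073 genes were called higher by DESeq2 and 152 of 3630 after thinning. Vim, the filament protein vimentin, ran from 996 to 3260 CPM against 402 to 1378, higher in 9 of 9 samples though the ranges overlapped, and differed by 1.22 ± 0.14. Anxa2, a membrane-binding annexin, was also higher in 9 of 9 (1.31 ± 0.12), but was 0.62 and not called after thinning (edgeR adjusted p = 0.0614). Lgals3, galectin-3, differed by 2.09 ± 0.13, and 1 cell gave 51.9% of its UMIs. Without cells that carried markers of other cell types the difference for Lgals3 was 1.01 and that for Vim 1.06, both still called by edgeR (adjusted p = 1.06e-10 and 2.23e-14). Of 14 tested interferon response genes edgeR called 8 lower and none higher, and DESeq2 called none (3 at an unadjusted p below 0.05), with Ifit3 at -1.97 ± 0.41, Ifit1 at -1.78 ± 0.33 and Iigp1, a guanosine triphosphatase against intracellular pathogens, at -1.43 ± 0.23. Of 16 immediate early genes 6 were called lower, Junb among them (-0.69 ± 0.13), and 2 higher, where DESeq2 called 1 lower.

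**Figure D5:**
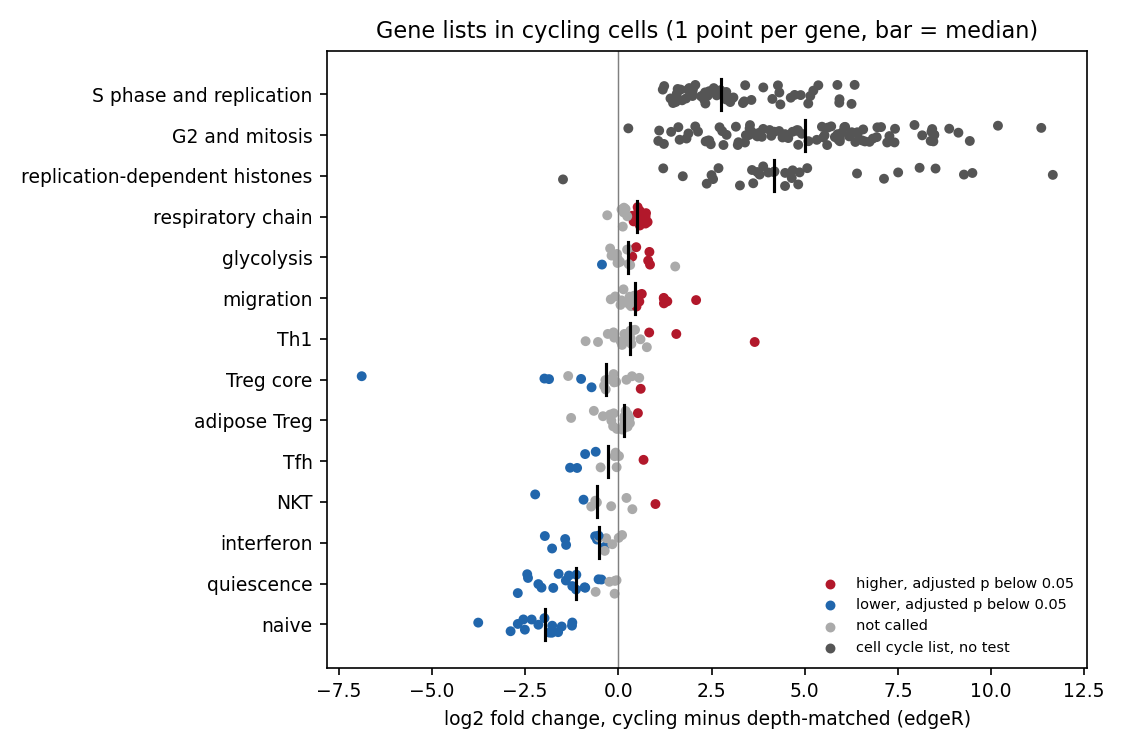
Each point is a tested gene of 1 of 14 lists (y axis), placed by its log2 fold change in cycling minus depth-matched cells from edgeR (x axis), with the list's median as a bar; red and blue mark genes called higher and lower, light grey genes not called, and dark grey the cell cycle lists, which have no test. Naive and quiescence genes lie left of 0 and respiratory chain genes mostly right of it. Genes without a UMI in 1 group, such as Gpr83 and Hmmr, stand at fitted values that are no bound.

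Matching the cells on their Th1 and Treg calls as well, a choice made after the Th1 share was seen, left 1215 of 9476 genes higher (12.8%) and 667 lower (7.04%). Of the 14 naive genes tested there 12 were still called lower (median -1.24), and 18 of 21 quiescence genes (median -0.87). Respiratory chain genes were higher in 14 of 22. The Th1 list was then called higher in 2 and lower in 4 of 20 genes, and migration genes higher in 5 of 20 and lower in 1.

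Outside all lists the genes with the largest rises that met the naming rule included the histone genes H2ac10 and H2bc3. The rises named in this paragraph passed the count filter only through the cycling cells, which the rule chose. Like the cell cycle lists, they are description only. Shcbp1 differed by 6.40 ± 0.36 and Cep55, which acts in the last step of cell separation, by 7.0 ± 0.43. Mxd3, a partner of Max, had 171 UMIs in cycling and 0 in matched cells, at least 186-fold higher. Among the genes with the largest falls, Slfn5 differed by -3.15 ± 0.27, Smad7, an inhibitor of transforming growth factor beta signalling, by -1.78 ± 0.18, Txk, a kinase of the T cell receptor pathway, by -1.72 ± 0.17 and Gpr183, an oxysterol receptor that guides T cells, by -1.61 ± 0.18.

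Markers of other cells moved with a few genes. In library 1 the myeloid list summed to 1582 CPM in cycling and 555 in matched cells, and in library 2 to 2.94 and 32.5. A single cycling cell of library 1 gave 99.4% of the 2390 Lyz2 UMIs, and Lyz2 (lysozyme) pointed up in library 1 (log2 ratio 3.14) and down in library 2 (-2.54). The erythroid list summed to 120 and 23.5 CPM in cycling against 596 and 5557 in matched cells. Hbb-bs, a globin, was called lower, and without cells that carried other-cell markers its log2 fold change was -0.54 (edgeR adjusted p = 0.226). The B cell list summed to 159 and 198 CPM against 291 and 177, with Pax5 at 0 in cycling cells, and the plasma cell list to 59.4 and 55.9 against 81.9 and 38.1, with Jchain at 0. The stromal list summed to 26.7 and 10.8 CPM against 30.2 and 14, with Col3a1, Dcn, Pdgfra and Lum at 0 in both libraries. The list of CD8, gamma-delta and NK markers summed to 60.6 and 68.7 CPM against 41.0 and 44.0, and 1 of its 4 tested genes, Cd8a, was called higher. Cd8a passed the count filter only through the cycling cells. A cell was set apart for other-cell markers when at least 2 genes of the B, plasma, myeloid, erythroid or stromal list had at least 2 UMIs each. This held for 9 of 184 cycling cells. The list of CD8, gamma-delta and NK markers was not part of this rule. Without the cells set apart SAT held 3.27% cycling cells, VAT 2.62%, BAT 0.618% and spleen 0.313%.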

How the data were processed

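Raw UMI counts were deposited as 1 sparse matrix per library (55487 genes, 15 hashtags), written by Cell Ranger 6.1.0 per the file headers, with build mm10 per the submitters' processing notes, which also name bcl2fastq and Seurat. The rule, members and gene lists were chosen with earlier results of these data known. Cells were kept with at least 500 genes, 1000 gene UMIs, under 10% mitochondrial UMIs and 1 UMI of Trbc1 or Trbc2. Hashtags were called by an expectation-maximisation mixture at a posterior above 0.95, tested on simulated data; no doublet caller was run. Sums held 720939 to 3611965 UMIs. edgeR 4.0.16 (R 4.3.3) used TMM, filterByExpr with a minimum count of 10, quasi-likelihood tests with the library as a term and Benjamini-Hochberg adjustment over all genes tested. DESeq2 1.42.0 was an alternative. Named genes were, per list, up to 4 with the largest absolute log2 fold change (called ones for T cell lists, or the lowest p where none was called), the program and promoter genes, and outside the lists the 10 highest and 10 lowest of at least 50 CPM with 1 direction in both libraries. Pcna, Mcm5, Cdk1 and Ccnb1 are promoter genes, and Pttg1 was named after its value was seen. Some genes of the programs and naming rule are not reported here by name. Older symbols were matched through RefSeq. Intervals cover counting error only.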

Additional observations from a re-analysis of the deposited data

Results flagged for a closer look

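Some samples stood apart from the other 3 of their tissue by Dixon's ratio, and 21 groups were checked. Chance alone exceeds the ratio's limit in about 1 of 20 groups of continuous values, a rate that does not hold for sparse counts. Where the other 3 samples are at 0%, any value above 0% is flagged, so that the Tfh and naive flags below were fixed by the zeros. The Tfh share of cycling cells was 6.25% in SAT replicate 3 and 9.09% in VAT replicate 2, each from 1 cell, against 0% in the others. The naive share of cycling cells was 20% in VAT replicate 1, against 0% in the others. S phase genes took 5708 CPM in cycling cells of SAT replicate 2, below the other SAT samples. Outside the labelled hashtags, 0.0856% of hashtag counts in library 1 and 0.0964% in library 2 belonged to hashtags that no label assigns.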

How the results depend on the processing

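Every tissue difference in cycling share kept its sign under all alternatives run. No p of these tests can fall below 0.0556, so that their side of 0.05 says nothing of stability. The Th1 and naive differences kept their sign and their call. Leaving out 1 hashed sample gave 33.1 to 39.6 points for Th1 and -36.6 to -31.3 for naive. The Treg difference became -2.99 points with 2 UMIs of each gene, -4.39 with 1 matched cell, -0.000516 in samples of at least 10 cycling cells and -1.17 after thinning, and ran from -0.376 to 2.41 with 1 sample left out. The NKT difference became -2.43, -1.21, -2.05 and -0.220 under these settings and -3.05 with strict hashtags, and ran from -2.05 to 1.70. The Tfh difference became 0.290 points with 1 program gene more, 11.5 with 1 fewer and -2.65 after thinning, and the Th17 difference -1.87 with 1 matched cell and -0.150 with 1 gene more. Within Th1-called cells SAT minus BAT became 0.0451 with 2 UMIs of each gene and 1.67 with 1 Th1 gene fewer, where VAT minus BAT became 0.973 and SAT minus VAT in other cells -0.00236. With 1 sample left out these ran from -1.99 to 0.535 for SAT minus BAT, -2.47 to 0.0550 for VAT minus BAT and -0.101 to 1.06 for SAT minus VAT. BAT replicate 2 turned the first 2 and VAT replicate 2 the last.

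Calls numbered 401 higher and 126 lower with DESeq2, 287 and 220 after thinning to 1300 UMIs, 729 higher in sums per hashed sample and 764 per experiment and tissue, 1910 lower without matching and 1435 lower with all cycling cells whatever their hashtags. Of 104 named genes that edgeR called, 56 lost the call with DESeq2, 24 of 70 tested after thinning and 5 of 63 tested in sums per hashed sample. Log2 fold changes of named genes turned sign as follows. With matching on Th1 and Treg calls Id2 was -0.076, Cd44 -0.037, Tbx21 -0.41, Cxcr3 -0.28, Cxcr6 -0.33, Ifng -0.38, Il12rb2 -0.51 and Il18rap -0.46. Tbx21 and the genes after it make up the Th1 call used for that matching, so that their signs there are no finding. With DESeq2 Tyrobp was -1.68, Iglc2 1.57, Lyz2 -0.49 and Gsn -0.23. Without matching Xcl1 was 0.087, Tmem176b 0.68, Iglc2 0.80, Xbp1 0.25, C1qb 0.61, Gsn -0.073, Pdcd1 0.63, Cd160 0.22 and Tmem176a 0.94. With all cycling cells Xcl1 was 0.16, Nr4a3 0.049, Iglc2 0.11, Xbp1 0.033, Gsn -3.54, Pdcd1 0.18 and Cd160 0.37. After thinning Nr4a3 was 0.52, Xbp1 0.25 and Tbx21 -0.19. Without other-cell markers Xbp1 was 0.11, Hba-a1 1.05 and Gsn -0.57. Il18rap was -0.023 with 2 UMIs of each gene, Gsn -0.019 without the count filter and Pdcd1 0.023 with library size only. By single library Tyrobp ran from -3.19 to 1.32 and Lyz2 from -2.54 to 3.14. Of named genes that were not called, Iglc2 ran from -1.37 to 2.99, Gsn from -0.65 to 0.32, Pdcd1 from -0.40 to 0.35 and Xbp1 from -0.062 to 0.078. The cause was not tested.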
